A study of Mus musculus with 8 samples.

Results

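The genes described here encode the subunits of the mitochondrial machinery of oxidative phosphorylation in the mouse aorta. They were taken by symbol: all rows of the count table that start with Nduf followed by a, b, c, s or v, the 4 Sdh genes, Uqcr, Cox4 to Cox8 and Atp5, and the protein-coding genes of mitochondrial DNA (mt-Nd, mt-Co, mt-Cytb and mt-Atp). The pattern found 112 of 48587 symbols, of which 53 belong by name to complex I, 4 to complex II, 11 to complex III, 21 to complex IV and 23 to complex V. Of the 112, 82 are nuclear genes of subunits and 13 are encoded in mitochondrial DNA. The pattern also took in 7 complex I assembly factors (Ndufaf), 7 pseudogenes, the supercomplex factor Cox7a2l, and Atp5s and Atp5sl, which are not subunits. A filter on low counts left 102 of the 112 for testing: 80 of the nuclear subunit genes, 12 of the mitochondrial genes, and 10 of the others. The 10 that were not tested were the 7 pseudogenes, mt-Atp8, and Cox7b2 and Cox8c, which had no count in any library.

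RNA came from whole aortic trees, sequenced from poly-A enriched, strand-specific libraries. The 4 groups held 2 libraries each: litter controls (WT) under vehicle, WT under VitD, and mice labelled as lacking Tet2 in vascular smooth muscle cells (Tet2KO), again under vehicle or VitD. The labels name no dose, duration, strain, age, promoter of the deletion or number of mice per library, and they call the first genotype both WT and litter control. Whether 2 libraries of a group stand for different animals is not stated, and the p-values therefore speak only of the variation among these 8 libraries, technical variation included.

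Oxidative phosphorylation passes electrons from NADH through complex I, and from succinate through complex II, by way of ubiquinone to complex III, cytochrome c and complex IV, where oxygen is reduced. Complexes I, III and IV pump protons across the inner mitochondrial membrane, and complex V, the ATP synthase, lets them flow back to make ATP. Complexes I, III, IV and V are built from nuclear and mitochondrial gene products together, whereas all subunits of complex II are nuclear. Smooth muscle uses glycolysis and respiration side by side, and brown adipocytes, which lie along the aorta, are rich in respiratory chain.

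Library totals ran from 15679274 to 22332149 counts. Tet2, which encodes an enzyme that oxidises methylated cytosine, stood at 35.8 and 32.2 CPM under vehicle and 18.3 and 20.0 CPM under VitD in WT, and at 42.0 and 35.2 CPM under vehicle and 26.6 and 37.6 CPM under VitD in Tet2KO. It was thus not lower in the libraries labelled Tet2KO, the deleted part of the gene is not given, and every comparison of genotypes here rests on that label. Summed smooth muscle markers (8 of 8 detected in every library) lay between 16161 and 34195 CPM, with Acta2 and Myh11 abundant throughout. The libraries are numbered in 2 separate series, a higher one for WT_VitD 1, WT_VitD 2 and Tet2KO_VitD 1 and a lower one for the other 5, which the labels do not call a batch. In WT the numbering and the treatment cannot be told apart. In bulk tissue such as this, fewer cells of a type and less RNA per cell cannot be told apart either.

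Many genes of respiratory subunits are known to carry sites for the nuclear respiratory factor NRF1 close to their start, so the promoters with an exact NRF1 palindrome (GCGCATGCGC) are shown first. RefSeq promoter windows of 250 bases before to 50 bases after the start (GRCm38.p6) were at hand for 65 of the 80 tested nuclear subunit genes. The palindrome was found in 5 of these 65 (7.69%), against 239 of 11506 windows of all tested genes (2.08%). In Uqcrc1 it began 30 bases after the start. The 200 bases just before the start follow for the other 4 genes, 5′ to 3′ on the coding strand, with the palindrome in capitals.
Atp5g2, chr15:102671048-102671247, minus strand: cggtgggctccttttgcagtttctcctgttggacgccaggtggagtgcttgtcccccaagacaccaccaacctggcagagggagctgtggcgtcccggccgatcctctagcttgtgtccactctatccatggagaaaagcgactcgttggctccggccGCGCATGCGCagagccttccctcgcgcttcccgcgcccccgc
Atp5k, chr5:108434400-108434599, minus strand: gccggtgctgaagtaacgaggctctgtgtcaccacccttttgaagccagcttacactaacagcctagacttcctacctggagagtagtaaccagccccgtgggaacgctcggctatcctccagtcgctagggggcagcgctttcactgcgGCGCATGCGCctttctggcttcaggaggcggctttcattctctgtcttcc
Cox6a1, chr5:115348959-115349158, minus strand: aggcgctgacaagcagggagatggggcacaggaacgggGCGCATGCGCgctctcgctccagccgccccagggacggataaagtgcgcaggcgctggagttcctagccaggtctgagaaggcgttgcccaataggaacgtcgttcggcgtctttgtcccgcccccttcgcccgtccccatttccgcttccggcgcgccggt
Ndufa11, chr17:56717562-56717761, plus strand: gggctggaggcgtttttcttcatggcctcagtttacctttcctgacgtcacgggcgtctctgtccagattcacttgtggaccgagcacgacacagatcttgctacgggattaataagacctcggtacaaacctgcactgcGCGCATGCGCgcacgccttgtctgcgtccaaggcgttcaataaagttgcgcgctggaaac
The palindrome begins 42 bases before the start in Atp5g2, 50 in Atp5k, 162 in Cox6a1 and 60 in Ndufa11. It reads the same on both strands, and a match is a match of letters only. Of these 4 genes Atp5g2 was called in the comparison of VitD with vehicle in WT and the other three were not, with log2 fold changes from 0.25 to 0.84. Searched on both strands, the YY1 letters AAGATGGCG stood in 7 of the 65 windows (10.8%, against 3.15% of all), in Ndufa9, Ndufc1, Ndufs4, Ndufs6, Ndufs7 and Atp5j2 beginning 22 to 35 bases after the start and in Atp5j 88 bases before it. The estrogen-related receptor letters TCAAGGTCA stood in 2 (3.08%, against 0.339%), Atp5g3 and Sdhd. The GABPA letters CCGGAAGTG stood in 2 (3.08%, against 4.31%), Ndufs3 and Uqcrh, and the CCAAT box CCAATCA in 4 (6.15%, against 11.2%), Cox8a, Ndufa6, Ndufb11 and Ndufs8. None of these motifs overlapped another in the same gene, since no gene held more than 1 of them.

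Per kilobase of exon, the nuclear subunit genes were expressed within a broad range. All levels in this paragraph are means of the 8 libraries. The ubiquitous complex IV isoforms Cox6a1 (531 CPM per kb) and Cox4i1 (447) and the catalytic β subunit of ATP synthase, Atp5b (464), headed the order. The tissue-restricted isoforms Cox6a2 (2.42) and Cox4i2 (2.81) stood at its end, with Ndufb2 (2.46), whose annotated exons run to 4375 bp. These are levels of RNA and say nothing of the amounts of protein.

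Summed over the nuclear subunit genes, CPM (counts scaled to the same total per library after TMM normalisation) reached 7134 in WT_vehicle 1 and 10695 in WT_vehicle 2, against 12132 and 10296 in the WT_VitD libraries. The Tet2KO libraries lay closer together, at 8189 and 8696 under vehicle and 8416 and 8960.4 under VitD. The WT groups overlapped, because WT_vehicle 2 stood above WT_VitD 2. The same held gene by gene: the median deviation of a nuclear subunit gene from its own mean over the libraries, on the log2(CPM + 1) scale, was -0.36 in WT_vehicle 1 and 0.23 in WT_vehicle 2, against 0.50 and 0.19 in the WT_VitD libraries. In Tet2KO it was -0.22 and -0.16 under vehicle and -0.10 and -0.08 under VitD. The 2 WT vehicle libraries therefore differed from each other by more than the WT groups did.

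**Figure D1:**
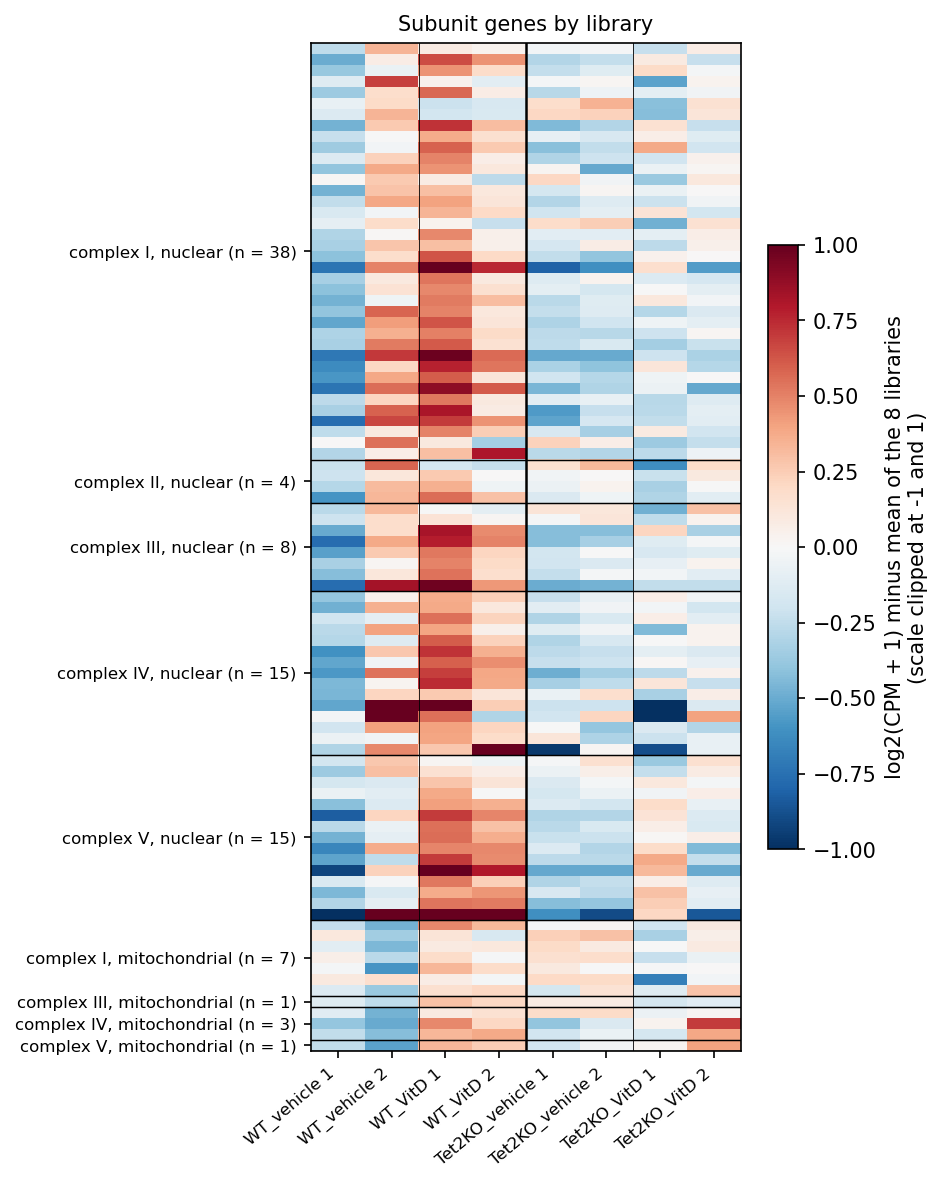
Levels of the 92 tested subunit genes (rows, ordered by complex, genome and mean level) in each of the 8 libraries (columns), as log2(CPM + 1) minus the mean of the gene over the libraries, with the color scale clipped at -1 and 1. WT_vehicle 1 is mostly blue and WT_VitD 1 mostly red in the nuclear rows, WT_vehicle 2 is red in most nuclear rows and blue in most mitochondrial rows, and the Tet2KO columns are mostly pale.

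VitD was compared with vehicle in WT to describe these genes in control mice, where treatment and library numbering cannot be told apart. By edgeR's quasi-likelihood test with Benjamini-Hochberg adjustment over the 16194 genes tested, 10 of the 102 tested genes rose and 1 fell, at an adjusted p under 0.05. That is 10.8% of them, against 20.1% of all genes tested (10.6% higher and 9.47% lower), so the share called was below the background. The shortfall lay in the falls, and the share that rose was near that of all genes. Of the 80 nuclear subunit genes 9 rose and 0 fell, and of the 12 mitochondrial genes 1 rose. The rises were small and of similar size, with log2 fold changes from 0.64 to 0.98. The calls were spread unevenly over the complexes, with 5 of 15 nuclear genes of complex V, 3 of 15 of complex IV, 1 of 38 of complex I and none of the 4 of complex II or the 8 of complex III. Differences between complexes were not tested. At an unadjusted p under 0.05 stood 3 of 8 nuclear genes of complex III and 0 of 4 of complex II, against 6150 of all 16194 genes. DESeq2 called higher 4 nuclear genes of complex I, 0 of II, 1 of III (Uqcrh), 4 of IV, 8 of V and 4 mitochondrial genes. For limma voom these counts were 6, 0, 2, 4, 8 and 4. Over all genes DESeq2 called 2097 of 28001 higher and limma voom 2325 of 16194.

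Leaving out a WT or a Tet2KO_vehicle library ended all or most of these 11 calls, while their fold changes kept their direction. Without WT_vehicle 2 other genes of the 102 were called in their place. Calls over all genes fell in each of these fits. Where the library left out belonged to a compared group, 1 library stood for that group, assumed to vary like the other groups. Without Tet2KO_VitD 1, or without Tet2KO_VitD 2, calls became more numerous, both among these genes and over all genes. Over these 8 fits the log2 fold changes of the 10 genes that rose lay between 0.476 and 1.13, and that of Atp5sl between -0.829 and -0.711. Atp5l lay between 0.85 and 1.13 and Atp5g1 between 0.64 and 0.84. Without Tet2KO_vehicle 1 the log2 of Atp5l in WT stayed at 0.98 and its SE was 0.257, against 0.232 with all libraries. With the library numbering as a covariate edgeR called 0 of the 102 genes, against 58 of all 16194. At an unadjusted p under 0.05 stood 6 of the 102, against 1592 of all 16194. That covariate is estimated from 1 pair of libraries, Tet2KO_VitD 1 and Tet2KO_VitD 2, since no other group holds both numberings, and the fit subtracts the gap of that pair from the WT change.

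The medians of most complexes leaned upward in WT. The median log2 fold change was 0.45 over the 80 nuclear subunit genes, of which 68 lay above 0, and 0.49 over the 12 mitochondrial genes, of which 11 did, against -0.03 over all genes tested. By complex, the nuclear medians were 0.38 for I, 0.15 for II, 0.49 for III, 0.47 for IV and 0.66 for V. Both VitD libraries lay above both vehicle libraries for 38 of the 80 nuclear subunit genes (47.5%) and for 9 of the 12 mitochondrial genes, against 33.8% of all genes tested. The share was 12 of 15 in complex V, 7 of 15 in IV, 4 of 8 in III, 15 of 38 in I and 0 of 4 in II. The nuclear median moved with the vehicle libraries and was 0.16 without WT_vehicle 1 and 0.72 without WT_vehicle 2. Macrophage markers (7 of 7 detected in every library) summed to 388 and 373 CPM under vehicle and 1686 and 2165 CPM under VitD in WT. Smooth muscle markers summed to 33503 and 33441 CPM under vehicle and 24018 and 16161 CPM under VitD there. Endothelial markers (5 of 5 detected in every library) summed to 1397 and 1257 CPM under vehicle and 2585 and 2174 CPM under VitD in WT, and fibroblast markers (5 of 5) to 4478 and 4035, and 5425 and 6704 CPM. The WT groups did not overlap in any of these 4 sums. Markers of T cells and thymocytes summed to 69.9 CPM in WT_vehicle 1 and to 1.72 to 22.8 CPM in the other 7 libraries. The part of these cells in the subunit changes was not tested.

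**Figure D2:**
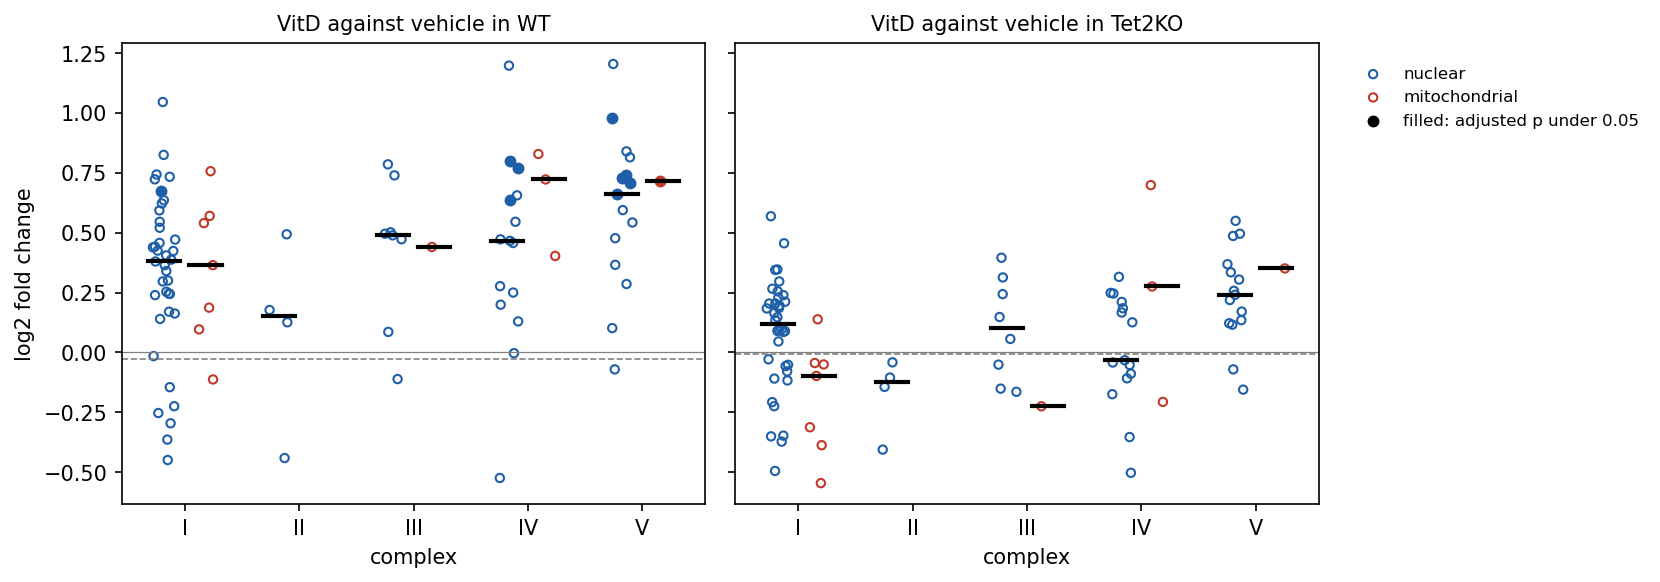
Log2 fold change of VitD against vehicle (vertical axis) for each tested subunit gene by complex, in WT (left) and Tet2KO (right), with nuclear genes in blue, mitochondrial genes in red and genes at an adjusted p under 0.05 filled. Black bars are medians of the points and the dashed line is the median of all 16194 genes; the 10 filled points all lie in WT, between 0.64 and 0.98, and the nuclear median of complex V in WT is 0.66.

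Complex V held the most genes called by edgeR. Atp5l (chromosome 9, 44912557 to 44920742, minus strand, mm10), subunit g of the membrane part of ATP synthase, stood at 81.2 and 98.4 CPM under vehicle and 191 and 163 CPM under VitD in WT, a rise by log2 0.98, SE 0.232, adjusted p = 0.0244. In Tet2KO it stood at 97.8 and 97.2 CPM under vehicle and 153 and 99.1 CPM under VitD. WT_VitD libraries were the highest, and Tet2KO_VitD 1 lay between them and the other five, which were close together. Atp5o, the subunit that joins the catalytic head to the peripheral stalk, stood at 95.9 and 125 CPM under vehicle and 197 and 172 CPM under VitD in WT (log2 0.74, SE 0.189, adjusted p = 0.0297), and at 114 and 115 CPM under vehicle and 134 and 139 CPM under VitD in Tet2KO. Atp5f1 (chromosome 3, 105942698 to 105960099, minus strand), subunit b of the stalk, stood at 126 and 153 CPM under vehicle and 225 and 216 CPM under VitD in WT, and at 154 and 149 CPM under vehicle and 192 and 161 CPM under VitD in Tet2KO (log2 0.66, SE 0.187, adjusted p = 0.0397 in WT). For both genes the 2 WT groups did not overlap.

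The rotor ring of ATP synthase is made of subunit c, which 3 nuclear genes encode as the same mature protein. Atp5g1 (chromosome 11, 96068852 to 96075670, minus strand) stood at 50.4 and 58.3 CPM under vehicle and 90.7 and 89.7 CPM under VitD in WT, and at 46.0 and 47.2 CPM under vehicle and 73.7 and 57.8 CPM under VitD in Tet2KO (log2 0.73, SE 0.178, adjusted p = 0.0257 in WT). Atp5g2 (chromosome 15, 102662864 to 102672352, minus strand), whose promoter is shown with its palindrome, stood at 61.6 and 75.9 CPM under vehicle and 109 and 115 CPM under VitD in WT, and at 75.5 and 70.1 CPM under vehicle and 104 and 79.9 CPM under VitD in Tet2KO (log2 0.71, SE 0.192, adjusted p = 0.0352 in WT). The WT groups did not overlap for either gene. Atp5g3 stood at 76.7 and 157 CPM under vehicle and 170.0 and 169.9 CPM under VitD in WT, and at 110.3 and 98.9 CPM under vehicle and 138 and 88.8 CPM under VitD in Tet2KO, with WT_vehicle 2 near the VitD libraries (log2 0.54, SE 0.327, adjusted p = 0.252 in WT). Counts of Atp5g1 amounted to 60.9% to 82.9% of those of Atp5g2 over the 8 libraries, not corrected for length.

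The catalytic subunits of ATP synthase stood apart from the small ones. Atp5a1, subunit α, was at 490.2 and 778 CPM under vehicle and 699.8 and 661 CPM under VitD in WT, and at 604 and 658 CPM under vehicle and 534 and 667 CPM under VitD in Tet2KO (log2 0.10, SE 0.259, adjusted p = 0.797 in WT). Atp5b, subunit β, was at 773 and 1062 CPM under vehicle and 894 and 854 CPM under VitD in WT, and at 873 and 985 CPM under vehicle and 681 and 987 CPM under VitD in Tet2KO (log2 -0.07, SE 0.259, adjusted p = 0.861 in WT). In both, WT_vehicle 2 was the highest of the 8 libraries, and neither was called. Both are long for this family, with exon lengths of 2904 and 1916 bp. Atp5k, subunit e, whose promoter is shown with its palindrome, spread widely between the WT vehicle libraries. It stood at 7.27 and 58.4 CPM under vehicle and 65.6 and 52.2 CPM under VitD in WT, and at 15.3 and 12.5 CPM under vehicle and 27.9 and 12.9 CPM under VitD in Tet2KO, so that WT_vehicle 1 was the lowest library and WT_vehicle 2 lay with the WT_VitD pair (log2 0.84, SE 0.724, adjusted p = 0.419 in WT).

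Complex IV, cytochrome c oxidase, had 3 nuclear genes called by edgeR, all of them small accessory subunits without a redox centre. Cox7b (chromosome X, 106015700 to 106022450, plus strand) stood at 75.02 and 105 CPM under vehicle and 164 and 149 CPM under VitD in WT, and at 92.0 and 93.6 CPM under vehicle and 109 and 102 CPM under VitD in Tet2KO (log2 0.80, SE 0.197, adjusted p = 0.0265 in WT). Cox7a2 (chromosome 9, 79755361 to 79759878, minus strand), the ubiquitous isoform of subunit VIIa, stood at 63.6 and 88.7 CPM under vehicle and 146 and 114 CPM under VitD in WT, and at 69.0 and 72.6 CPM under vehicle and 94.5 and 73.9 CPM under VitD in Tet2KO (log2 0.77, SE 0.225, adjusted p = 0.0433 in WT). Cox7c (chromosome 13, 86044816 to 86046904, minus strand) stood at 138 and 153 CPM under vehicle and 255 and 197 CPM under VitD in WT (log2 0.64, SE 0.192, adjusted p = 0.0475), and at 136 and 149.98 CPM under vehicle and 167 and 172 CPM under VitD in Tet2KO. In all 3 genes both WT_VitD libraries lay above the 6 others. Cox4i1, the ubiquitous subunit IV, stood at 258 and 348 CPM under vehicle and 438 and 399 CPM under VitD in WT, and at 288 and 322 CPM under vehicle and 354 and 330.2 CPM under VitD in Tet2KO, with no overlap between the WT groups and no call (log2 0.47, SE 0.212, adjusted p = 0.143 in WT). Cox5a, which neighbours it in the enzyme, stood at 45.5 and 73.1 CPM under vehicle and 75.6 and 68.2 CPM under VitD in WT, and at 60.0 and 70.6 CPM under vehicle and 49.997 and 65.7 CPM under VitD in Tet2KO (log2 0.28, SE 0.247, adjusted p = 0.435 in WT), and there WT_vehicle 2 lay above WT_VitD 2.

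Complex I is the largest of the complexes, and 1 of its 38 nuclear genes was called by edgeR, against 4 by DESeq2 and 6 by limma voom. Ndufs4 (chromosome 13, 114287795 to 114388258, minus strand), an accessory subunit known to hold the NADH-oxidising module in place, stood at 37.8 and 51.3 CPM under vehicle and 76.4 and 65.6 CPM under VitD in WT, and at 43.7 and 48.7 CPM under vehicle and 57.1 and 52.0 CPM under VitD in Tet2KO (log2 0.67, SE 0.195, adjusted p = 0.0422 in WT). Both WT_VitD libraries lay above the other six. The 3 core subunits followed here, which carry electrons, had log2 fold changes below 0 and no call. Ndufs1, the iron-sulfur subunit of the NADH module, stood at 93.6 and 131 CPM under vehicle and 90.4 and 92.6 CPM under VitD in WT, and at 119 and 121 CPM under vehicle and 76.5 and 112 CPM under VitD in Tet2KO (log2 -0.30, SE 0.232, adjusted p = 0.374 in WT). Ndufv1, which binds NADH and flavin, stood at 101 and 179 CPM under vehicle and 115 and 103 CPM under VitD in WT, and at 109 and 113 CPM under vehicle and 76.3 and 114 CPM under VitD in Tet2KO (log2 -0.36, SE 0.284, adjusted p = 0.372 in WT). Ndufs7, which hands electrons on towards ubiquinone, stood at 77.9 and 92.9 CPM under vehicle and 81.9 and 64.3 CPM under VitD in WT, and at 89.5 and 75.3 CPM under vehicle and 59.5 and 83.2 CPM under VitD in Tet2KO (log2 -0.22, SE 0.221, adjusted p = 0.483 in WT). In these 3 genes WT_vehicle 2 was the highest of the libraries and Tet2KO_VitD 1 the lowest, and the WT groups overlapped for Ndufv1 and Ndufs7. With numbering as a covariate, less the gap between the Tet2KO_VitD libraries, the 3 log2 fold changes were 0.26, 0.21 and 0.26. Ndufa2, a small accessory subunit, had the largest log2 fold change of the complex in WT, but its vehicle libraries lay at 34.2 and 81.4 CPM and its VitD libraries at 142 and 97.4 (log2 1.05, SE 0.396, adjusted p = 0.0901).

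Complex II and complex III had no gene called by edgeR, and 1 gene of complex III was called by DESeq2 and 2 by limma voom. Sdha, the flavoprotein that oxidises succinate in complex II and in the citric acid cycle, stood at 260.2 and 456 CPM under vehicle and 269.5 and 258 CPM under VitD in WT, and at 339 and 380.4 CPM under vehicle and 197 and 346 CPM under VitD in Tet2KO (log2 -0.44, SE 0.325, adjusted p = 0.346 in WT). Its iron-sulfur partner Sdhb stood at 101 and 154 CPM under vehicle and 158 and 119.7 CPM under VitD in WT, and at 118 and 127 CPM under vehicle and 98.5 and 123 CPM under VitD in Tet2KO (log2 0.13, SE 0.245, adjusted p = 0.731 in WT). The membrane anchor Sdhd had the smallest p of complex II, with 66.7 and 127 CPM under vehicle and 149 and 124 CPM under VitD in WT (log2 0.49, SE 0.279, adjusted p = 0.226). In all 3 genes a vehicle library of WT lay above a VitD library. In complex III, Uqcrfs1, the Rieske iron-sulfur protein, stood at 76.8 and 135 CPM under vehicle and 163 and 131 CPM under VitD in WT, and at 99.0 and 112 CPM under vehicle and 101 and 104 CPM under VitD in Tet2KO (log2 0.47, SE 0.261, adjusted p = 0.215 in WT). The core protein Uqcrc1 stood at 162 and 244 CPM under vehicle and 194 and 182 CPM under VitD in WT, and at 213 and 211 CPM under vehicle and 139 and 239 CPM under VitD in Tet2KO (log2 -0.11, SE 0.285, adjusted p = 0.799 in WT). The 2 genes with the smallest p were the hinge protein Uqcrh, with 97.6 and 157 CPM under vehicle and 246 and 193 CPM under VitD in WT (log2 0.79, SE 0.274, adjusted p = 0.0719), and Uqcrb, with 80.1 and 102 CPM under vehicle and 142 and 115 CPM under VitD in WT (log2 0.50, SE 0.190, adjusted p = 0.0924). For those 2 the WT groups did not overlap.

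Mitochondrial DNA is transcribed as long precursors that are cut into single mRNAs, most of which carry a poly-A tail. Its 13 protein-coding genes took 4.23% to 6.12% of all counts per library, against 0.732% to 1.14% for the nuclear subunit genes. Levels of the mitochondrial genes fell into 2 classes. The 7 of the higher class, in order of level, lay between 2670.4 and 14079.7 CPM per kb in the mean of the libraries: mt-Co1 (14079.7), mt-Cytb (9064), mt-Nd1 (7172), mt-Nd2 (4696), mt-Nd4 (3278), mt-Nd6 (2763) and mt-Nd5. The other 6 lay at or below 38.4 CPM per kb: mt-Nd3 (38.4), mt-Co2 (34.2), mt-Atp6 (27.9), mt-Co3 (25.6), mt-Nd4l (11.6) and mt-Atp8 (1.84). All 13 come from the same circular DNA.

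Of the 6 genes of the low class, 5 have near-complete copies elsewhere in the annotation, as is known for mitochondrial DNA inserted in the nuclear genome. Of the 50-base stretches of mt-Co2, mt-Co3, mt-Atp6, mt-Nd4l and mt-Nd3, 98.0% to 100% also stood in another annotated transcript. The closest copy of mt-Co2, Gm28661, itself held 382 to 1135 counts per library, and that of mt-Atp6, Gm10925, 285 to 870. The share was 62.2% for mt-Nd4 and 51.1% for mt-Co1, 8.19% for mt-Nd2, 7.61% for mt-Nd5, and 0 for mt-Nd1, mt-Nd6, mt-Cytb and mt-Atp8. The sources used here do not say how reads that match several places were counted, so the levels of mt-Co2, mt-Co3, mt-Atp6, mt-Nd4l and mt-Nd3 are uncertain, and mt-Nd4 and mt-Co1 may be understated. For mt-Atp8, which overlaps the start of mt-Atp6, no such copy was found at this stretch length.

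Among mitochondrial genes of complex I, mt-Nd1 (chromosome M, 2751 to 3707, plus strand) stood at 5710.0 and 4834 CPM under vehicle and 9406 and 8408 CPM under VitD in WT, and at 6638 and 6839 CPM under vehicle and 5862 and 7209 CPM under VitD in Tet2KO (log2 0.76, SE 0.251, adjusted p = 0.0617 in WT). It had the largest log2 fold change in WT of the 7 abundant genes, and the WT groups did not overlap. mt-Nd2 stood at 5180.2 and 3781 CPM under vehicle and 5263 and 4317 CPM under VitD in WT, and at 5681 and 5912 CPM under vehicle and 3849 and 5016 CPM under VitD in Tet2KO (log2 0.10 in WT). mt-Nd4 stood at 4679 and 3719 CPM under vehicle and 5102 and 4459 CPM under VitD in WT, and at 5007 and 5062 CPM under vehicle and 3830.3 and 4279.7 CPM under VitD in Tet2KO (log2 0.19 in WT). In both, the WT groups overlapped. mt-Nd5 stood at 4492 and 3538 CPM under vehicle and 5143 and 5194 CPM under VitD in WT, and at 5518 and 5132 CPM under vehicle and 4807 and 5144 CPM under VitD in Tet2KO (log2 0.36 in WT). mt-Nd6 (13552 to 14070, minus strand), the 1 protein-coding gene of the other strand, stood at 1393 and 939.6 CPM under vehicle and 1783 and 1609 CPM under VitD in WT, and at 1515 and 1407 CPM under vehicle and 1405 and 1418 CPM under VitD in Tet2KO (log2 0.54 in WT). Its counts made 26.6% to 34.7% of those of mt-Nd5, which it overlaps at its end, and the sources used here do not say whether counting used the strand.

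The 2 scarce mitochondrial genes of complex I gave low values throughout. mt-Nd3 stood at 14.2 and 14.9 CPM under vehicle and 13.9 and 12.96 CPM under VitD in WT, and at 15.2 and 15.1 CPM under vehicle and 7.83 and 12.9 CPM under VitD in Tet2KO (log2 -0.11 in WT), with Tet2KO_VitD 1 the lowest library. mt-Nd4l stood at 2.98 and 2.39 CPM under vehicle and 3.91 and 4.08 CPM under VitD in WT, and at 2.88 and 3.85 CPM under vehicle and 3.04 and 4.36 CPM under VitD in Tet2KO (log2 0.57 in WT).

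The remaining mitochondrial genes belong to complexes III, IV and V. mt-Cytb, the cytochrome b of complex III, stood at 9433 and 8604 CPM under vehicle and 12599 and 11879.6 CPM under VitD in WT, and at 10907 and 10881 CPM under vehicle and 9126 and 9520.4 CPM under VitD in Tet2KO (log2 0.44, SE 0.239, adjusted p = 0.208 in WT). mt-Co1, the catalytic core of complex IV, stood at 19919.6 and 15551 CPM under vehicle and 22941 and 23959 CPM under VitD in WT, and at 24488 and 24609.5 CPM under vehicle and 20694 and 21862 CPM under VitD in Tet2KO (log2 0.40 in WT). For both, the WT groups did not overlap, and the Tet2KO_vehicle libraries were above both WT_vehicle libraries. mt-Co2 stood at 16.9 and 15.5 CPM under vehicle and 31.6 and 25.9 CPM under VitD in WT, and at 16.8 and 20.2 CPM under vehicle and 23.0 and 37.0 CPM under VitD in Tet2KO (log2 0.83, SE 0.256, adjusted p = 0.0506 in WT), and mt-Co3 at 16.3 and 14.4 CPM under vehicle and 24.9 and 25.8 CPM under VitD in WT, and at 17.1 and 18.7 CPM under vehicle and 17.3 and 26.0 CPM under VitD in Tet2KO (log2 0.72, SE 0.232, adjusted p = 0.0564 in WT). mt-Atp6 (chromosome M, 7927 to 8607, plus strand), the proton channel subunit of ATP synthase, stood at 15.5 and 12.5 CPM under vehicle and 23.6 and 22.2 CPM under VitD in WT, and at 16.2 and 18.1 CPM under vehicle and 18.9 and 24.8 CPM under VitD in Tet2KO. Its rise in WT (log2 0.71, SE 0.219, adjusted p = 0.0498) was the 1 call by edgeR among mitochondrial genes, where DESeq2 and limma voom called 4 each, at an adjusted p just under the threshold and in a gene with near-identical copies. mt-Atp8 had 0.223 to 0.484 CPM and was not tested.

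Nuclear and mitochondrial subunit genes did not move together from library to library. Summed over the 13 mitochondrial genes, CPM was 50873 and 41027 in WT_vehicle, 62336 and 59917 in WT_VitD, 59823 and 59918 in Tet2KO_vehicle, and 49642 and 54555 in Tet2KO_VitD. The lowest mitochondrial sum was in WT_vehicle 2, the vehicle library with the highest nuclear sum. The ratio of the mitochondrial to the nuclear sum was accordingly 3.84 in WT_vehicle 2 and 7.13 in WT_vehicle 1. It was 5.14 and 5.82 in WT_VitD, 7.31 and 6.89 in Tet2KO_vehicle and 5.90 and 6.09 in Tet2KO_VitD. In Tet2KO both VitD libraries lay below both vehicle libraries in this ratio, and in WT the vehicle libraries lay on either side of the VitD pair. WT_vehicle 2 also differed from the others in base composition: over 15702 genes its deviations went with the GC content of the exons at a Spearman rho of 0.36, the largest of the 8 libraries. The part of GC content in the ratio was not tested.

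VitD against vehicle in Tet2KO asks whether the treatment acts in the same way where the label gives a deletion. By edgeR, 0 of the 102 genes were called, against 0.198% of all genes tested (0.179% higher and 0.0185% lower). DESeq2 and limma voom called 0 of the members too, against 461 of 28001 and 8 of 16194 over all genes. At an unadjusted p under 0.05 by edgeR stood 2 of the 102, against 2148 of all 16194. Those 2 were Atp5g1 (log2 0.50, SE 0.178, adjusted p = 0.3) and mt-Co2 (log2 0.70, SE 0.254, adjusted p = 0.305). The median log2 fold change was 0.13 over nuclear subunit genes (51 of 80 above 0) and -0.07 over mitochondrial genes (4 of 12 above 0), against -0.00512 over all genes. Those 4 were mt-Co2, mt-Atp6, mt-Co3 and mt-Nd4l, of the low class with near-complete copies. All mitochondrial genes of the higher class lay below 0, from -0.39 in mt-Nd2 to -0.04 in mt-Nd1. By complex the nuclear medians were 0.12 for I, -0.12 for II, 0.10 for III, -0.03 for IV and 0.24 for V. Both VitD libraries lay above both vehicle libraries for 36 of the 80 nuclear genes (45.0%) and for 9 of the 15 of complex V, against 23.7% of all genes. Of the 12 mitochondrial genes this held for 2. Both VitD libraries lay below both vehicle libraries for 5 of the 12, against 22.2% of all genes. Without Tet2KO_VitD 2 the group is the single library Tet2KO_VitD 1, and the spread comes from the other groups. The log2 was then 0.66 for Atp5g1, 1.01 for Cox7a2l and -0.95 for mt-Nd3, against 0.50, 0.52 and -0.55 with all libraries. Macrophage markers summed to 505 and 629 CPM under vehicle and 1896 and 1049.7 CPM under VitD in Tet2KO. Smooth muscle markers summed to 34195 and 31762 CPM under vehicle and 21887 and 30978 CPM under VitD there. Endothelial markers summed to 4169 CPM in Tet2KO_VitD 1, the highest of the 8 libraries, and to 1223 CPM in Tet2KO_VitD 2, the lowest. Their part in the subunit levels was not tested.

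In the other complexes of Tet2KO the smallest p-values belonged to Ndufa6 (log2 0.46, SE 0.235, adjusted p = 0.425) and mt-Nd3 (log2 -0.55, SE 0.260, adjusted p = 0.401) in complex I, and to Sdha (log2 -0.41, SE 0.325, adjusted p = 0.582) and Sdhb (log2 -0.14, SE 0.245, adjusted p = 0.804) in complex II. In complex III they belonged to Uqcrh (log2 0.40, SE 0.274, adjusted p = 0.53) and Uqcrq (log2 0.31, SE 0.320, adjusted p = 0.664).

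Tet2KO against WT under vehicle called 0 of the 102 genes and 0.0% of all genes, with 0 of the 102 and 481 of all genes at an unadjusted p under 0.05. DESeq2 and limma voom called 0 of the members too, against 18 of 28001 and 0 of 16194 over all genes. The 12 mitochondrial genes all had log2 fold changes above 0, with a median of 0.31, and 59 of the 80 nuclear subunit genes lay below 0, with a median of -0.09. In complex I the smallest p-values were those of Ndufaf5 (log2 -0.52, SE 0.233, adjusted p = 1) and Ndufa2 (log2 -0.74, SE 0.398, adjusted p = 1), and in complex IV those of mt-Co1 (log2 0.47, SE 0.264, adjusted p = 1) and Cox5b (log2 -0.51). In the others they were those of Sdhb (log2 -0.06), Sdhd (log2 -0.04), Uqcr11 (log2 -0.74), mt-Cytb (log2 0.27), Atp5k (log2 -1.24) and mt-Atp6 (log2 0.30), all with an adjusted p of 1 by edgeR. Several of these values turned on WT_vehicle 2: without that library the log2 of Ndufa2 was 0.02, and that of Atp5k went from -1.24 to 0.93. In an edgeR fit without the filter on low counts Atp5k (adjusted p = 0.000414) and Cox8b (log2 -0.93, adjusted p = 0.0136) were called lower. That is 2 of 110 genes, against 164 of all 28001. The SE of Atp5k was 0.248 in that fit, against 0.743 with the filter. In both genes WT_vehicle 1 lay below both Tet2KO_vehicle libraries.

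Tet2KO against WT under VitD called 0 of the 102 genes and 0.0% of all genes, with 22 of the 102 and 1719 of all 16194 genes at an unadjusted p under 0.05. DESeq2 and limma voom called 0 of the members, against 96 of 28001 and 0 of 16194 over all genes. The nuclear subunit genes lay lower in Tet2KO almost throughout, 76 of 80 below 0 with a median of -0.42, against 0.03 over all genes, and 11 of 12 mitochondrial genes lay below 0 with a median of -0.18. All 15 nuclear genes of complex IV and all 15 of complex V were below 0. The differences went with exon length, at a Spearman rho of 0.58 over 79 nuclear subunit genes and 0.30 over 15702 genes, shorter genes lying lower in Tet2KO, and genes are not independent replicates. With the length trend of each library removed, 5 of the 102 genes stood at an unadjusted p under 0.05, in place of 22. The smallest p-values were those of Ndufa2 (log2 -1.21, SE 0.398, adjusted p = 0.457), Cox7b (log2 -0.57, SE 0.196, adjusted p = 0.459) and Ndufa4l2 (log2 -0.79, SE 0.272, adjusted p = 0.459). In complexes III and V they were those of Uqcrh (log2 -0.69, SE 0.274, adjusted p = 0.467), Uqcr11 (log2 -0.99, SE 0.426, adjusted p = 0.467), Atp5e (log2 -1.002, SE 0.378, adjusted p = 0.467) and Atp5g1 (log2 -0.46, SE 0.177, adjusted p = 0.467). Complex II had Sdhd (log2 -0.64, SE 0.280, adjusted p = 0.47) and Sdhb (log2 -0.33), and Cox7a2 came next to Cox7b in complex IV (log2 -0.63). Without the filter on low counts 8 of 110 genes were called lower, named here after their values were seen: Ndufa1, Ndufa2, Ndufa3, Uqcr11, Cox6a2, Cox8b, Atp5e and Atp5k. That fit called 610 of all 28001 genes, 240 of them lower. Its SE for Ndufa2 was 0.232, against 0.398 with the filter. Without Tet2KO_VitD 1, with 1 library left in that group, the log2 of Cox7a2l was -1.34.

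The interaction asks whether the response to VitD differed between the genotypes. By DESeq2 and limma voom it was called for 0 of the members, against 18 of 28001 and 0 of 16194 over all genes. By edgeR it was called for 0 of the 102 genes and 0.0% of all genes. At an unadjusted p under 0.05 by edgeR stood 1 of the 102, against 1006 of all genes. That 1 gene was mt-Nd1 (log2 -0.80, SE 0.353, adjusted p = 0.794). The estimates lay below 0 for 76 of 80 nuclear genes, with a median of -0.29, and for all 12 mitochondrial genes, with a median of -0.47. The next smallest p-values were those of Cox7b (log2 -0.61, SE 0.277, adjusted p = 0.794), Atp5sl (log2 0.59, adjusted p = 0.803) and mt-Cytb (log2 -0.67, SE 0.338, adjusted p = 0.803). By complex they were followed by Ndufb5 (log2 -0.55), Sdhd (log2 -0.60), Sdhb (log2 -0.27), Uqcrfs1 (log2 -0.52), Cox7a2 (log2 -0.52) and Atp5l (log2 -0.61). These contrasts share libraries with the comparisons within a genotype and are not independent of them.

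Several complex IV subunits exist as a common and a tissue-restricted isoform. Cox8b and Cox7a1 are the heart, skeletal muscle and brown fat forms of subunits VIII and VIIa, and Cox6a2 is the muscle form of VIa. Cox8b (chromosome 7, 140898945 to 140900446, minus strand) stood at 28.7 and 109.6 CPM under vehicle and 88.9 and 49.2 CPM under VitD in WT, and at 35.6 and 35.8 CPM under vehicle and 12.7 and 37.4 CPM under VitD in Tet2KO (log2 -0.00, SE 0.616, adjusted p = 0.998 in WT). Cox7a1 stood at 15.2 and 35.9 CPM under vehicle and 23.2 and 12.4 CPM under VitD in WT, and at 13.4 and 18.1 CPM under vehicle and 3.73 and 20.8 CPM under VitD in Tet2KO (log2 -0.52, SE 0.679, adjusted p = 0.598 in WT). In both genes WT_vehicle 2 was the highest library and Tet2KO_VitD 1 the lowest. Their common partners varied less, with Cox8a at 164 and 262 CPM under vehicle and 261 and 205 CPM under VitD in WT, and at 182 and 193 CPM under vehicle and 146 and 203 CPM under VitD in Tet2KO. As a share of the counts of Cox8a, Cox8b made 8.75% in Tet2KO_VitD 1 and 41.8% in WT_vehicle 2, with the other libraries between. As a share of Cox7a2, Cox7a1 ran from 3.94% in Tet2KO_VitD 1 to 40.5% in WT_vehicle 2.

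Markers of brown adipocytes were measured beside these isoforms. The 8 markers, of which 7 or 8 were detected per library and Cox8b is 1, summed to 479 and 859 CPM in WT_vehicle, 1028 and 935 in WT_VitD, 549.6 and 689 in Tet2KO_vehicle, and 222 and 931 in Tet2KO_VitD. Ucp1, the uncoupling protein that defines the cell type, was at 47.8 CPM in Tet2KO_VitD 1 and at 254 to 562 CPM in the other libraries. The lipid droplet protein Cidea was lowest in Tet2KO_VitD 1 (34.4 CPM) and highest in WT_vehicle 2 (207 CPM), as Cox8b and Cox7a1 were. RNA of brown adipocyte genes was thus present in every library, and the widest gap within a group was that between the 2 Tet2KO_VitD libraries. Their part in the levels of the subunit genes was not tested.

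**Figure D3:**
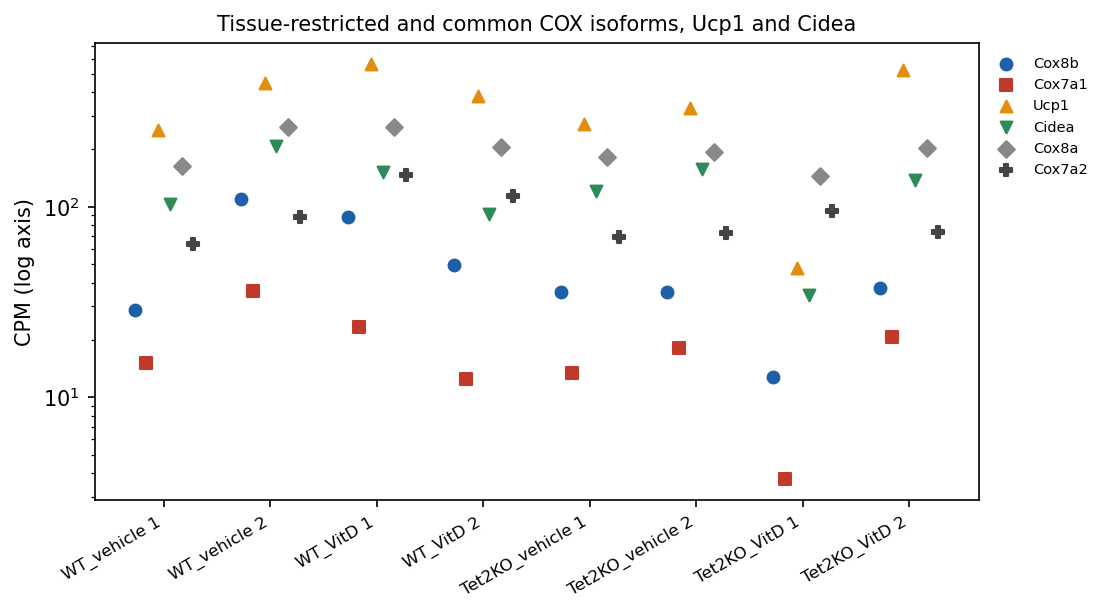
CPM (log axis) of the tissue-restricted isoforms Cox8b and Cox7a1, the common isoforms Cox8a and Cox7a2, and the brown adipocyte genes Ucp1 and Cidea in each of the 8 libraries, 1 point per library. Cox8b, Cox7a1, Ucp1 and Cidea are all lowest in Tet2KO_VitD 1, where Cox7a2 is at 94.5 CPM, in the middle of its range.

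The other restricted isoforms were scarce. Cox6a2 stood at 0.870 and 2.22 CPM under vehicle and 1.79 and 5.32 CPM under VitD in WT, and at 0.184 and 1.34 CPM under vehicle and 0.248 and 1.19 CPM under VitD in Tet2KO, 0.0664% to 1.66% of the counts of Cox6a1 (log2 1.197, SE 0.918, adjusted p = 0.364 in WT). Its highest library was WT_VitD 2, in which 10 skeletal muscle markers summed to 489 CPM, against 114 in WT_VitD 1 and at most 36.7 in the other six. Whether muscle in the sample set the level of Cox6a2 was not tested. Its common form Cox6a1 stood at 213 and 382 CPM under vehicle and 387 and 320.4 CPM under VitD in WT, and at 277 and 291 CPM under vehicle and 293 and 262 CPM under VitD in Tet2KO (log2 0.25 in WT). Cox4i2, known from lung and from low oxygen, stood at 2.05 and 2.11 CPM under vehicle and 3.18 and 2.60 CPM under VitD in WT, and at 2.45 and 1.56 CPM under vehicle and 1.74 and 2.02 CPM under VitD in Tet2KO, which is 0.486% to 0.853% of the counts of Cox4i1. By edgeR with the filter on low counts neither was called in any comparison. Without that filter Cox6a2 was called lower in Tet2KO than in WT under VitD (log2 -2.26, adjusted p = 0.00648), in a fit that called 610 of all 28001 genes. Cox6b2, the testis form of VIb, stood at 3.23 and 5.41 CPM under vehicle and 5.36 and 4.59 CPM under VitD in WT, and at 3.80 and 2.68 CPM under vehicle and 3.35 and 2.95 CPM under VitD in Tet2KO. Its common form Cox6b1 stood at 84.2 and 156 CPM under vehicle and 213 and 165 CPM under VitD in WT, and at 107 and 109.6 CPM under vehicle and 120.3 and 116 CPM under VitD in Tet2KO (log2 0.66, SE 0.276, adjusted p = 0.117 in WT), with no overlap between the WT groups. Ndufa4, named for complex I and placed in complex IV in current usage, stood at 106 and 158 CPM under vehicle and 236 and 205 CPM under VitD in WT, and at 123 and 127 CPM under vehicle and 160.1 and 128 CPM under VitD in Tet2KO (log2 0.74, SE 0.229, adjusted p = 0.0506 in WT), with no overlap between the WT groups. Its hypoxia-inducible relative Ndufa4l2 stood at 7.83 and 10.4 CPM under vehicle and 12.3 and 17.9 CPM under VitD in WT, and at 7.98 and 7.82 CPM under vehicle and 8.01 and 9.46 CPM under VitD in Tet2KO (log2 0.73, SE 0.272, adjusted p = 0.0849 in WT), highest in WT_VitD 2.

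Cox7a2l, which is known to join complexes III and IV into supercomplexes and is no subunit of the isolated enzyme, fell into 2 levels. It stood at 98.1 and 115 CPM under vehicle and 209 and 195 CPM under VitD in WT, and at 95.6 and 91.2 CPM under vehicle and 188 and 80.9 CPM under VitD in Tet2KO. The 3 libraries of the higher numbering, WT_VitD 1, WT_VitD 2 and Tet2KO_VitD 1, lay at 188 to 209 CPM, and the 5 of the lower numbering at 80.9 to 115 CPM, with no overlap. Neither comparison of VitD with vehicle called it (log2 0.92, SE 0.333, adjusted p = 0.0784 in WT, and log2 0.52, SE 0.332, adjusted p = 0.501 in Tet2KO). The 2 Tet2KO_VitD libraries, 1 of each numbering, differed by more than any other pair within a group. With numbering as a covariate, which leaves Tet2KO_VitD 2 alone against vehicle and so restates that gap, the log2 in Tet2KO was -0.21. In Tet2KO against WT under VitD, the single library Tet2KO_VitD 2 gave a log2 of -1.34 without Tet2KO_VitD 1, against -0.59 with all libraries. The part of the numbering in these levels was not tested.

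The size of the change in WT went with the length of the gene. Exon lengths of the nuclear subunit genes ran from 360 to 4912 bp with a median of 934 bp, against 3127 bp for all genes tested. Over the 79 with a known length, Spearman's rho between length and log2 fold change in WT was -0.41, and over 15702 genes it was -0.20; genes are not independent replicates, and no p is given. The 23 subunit genes under 700 bp had a median log2 of 0.62, the 35 from 700 to 1500 bp 0.44 and the 21 of 1500 bp and over 0.10. All genes of the same length classes had medians of 0.29, 0.34 and -0.08. In the first class stood Atp5e (421 bp, log2 1.204), subunit ε of ATP synthase, and Ndufa2 (572 bp, log2 1.05), and in the last Sdha (2900 bp, log2 -0.44) and Ndufs1 (2819 bp, log2 -0.30). Over all genes, the deviations of the libraries went with length at a rho of -0.30 in WT_VitD 1 and -0.21 in WT_VitD 2, against 0.20 in WT_vehicle 1 and -0.037 in WT_vehicle 2. After removal of the length trend of each library the nuclear median in WT was 0.10. Of the 102 genes 4 were then called, Atp5g1 and Atp5o higher and Atp5s and Atp5sl lower, against 2756 of all 16194 genes. The difference between the small subunits and the catalytic ones cannot be told apart from this trend.

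**Figure D4:**
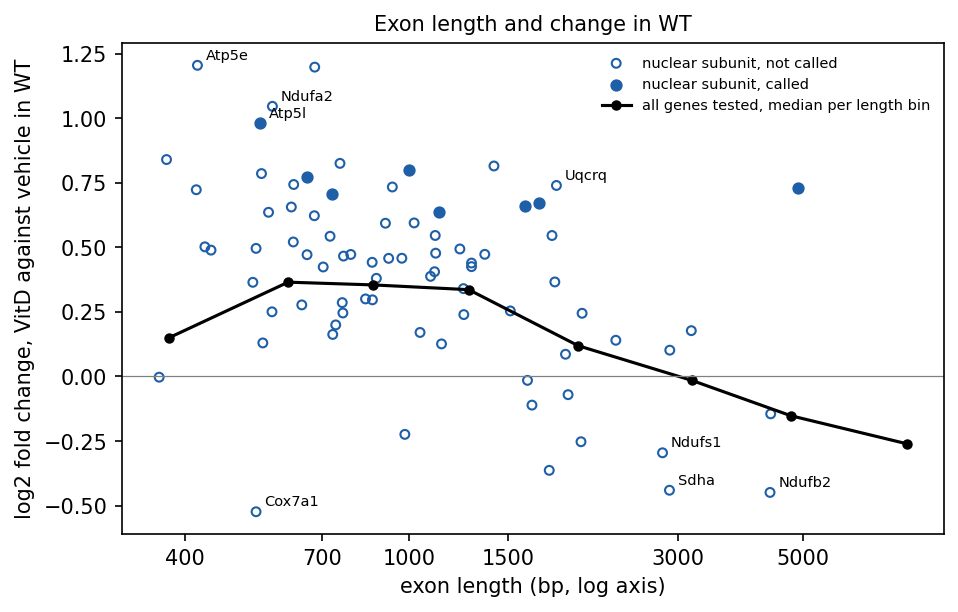
Log2 fold change of VitD against vehicle in WT (vertical axis) against exon length in bp (horizontal log axis) for the 79 tested nuclear subunit genes with a known length, filled where the adjusted p was under 0.05. The black line joins the medians of all tested genes in 8 length bins. It stands at 0.15 in the shortest bin (median 375 bp), 0.36 in the next, 0.34 in the bin with a median of 1276.5 bp and -0.26 in the longest. The points tend to lie lower for longer genes.

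The factors that assemble the complexes had lower medians than the subunits, a difference that was not tested. The 7 Ndufaf genes had a median log2 of -0.00952 in WT, with 0 called by edgeR, 1 at an unadjusted p under 0.05, 0 called by DESeq2 and 1 by limma voom. Of 39 tested assembly factors outside the pattern, 3 rose and 1 fell (median 0.15, 24 of 39 above 0). Both VitD libraries lay above both vehicle libraries for 18 of the 39 (46.2%), close to the 47.5% of the nuclear subunits, and for 1 of the 7 Ndufaf genes. Over all genes tested this held for 33.8%. Uqcc2, for complex III, stood at 16.5 and 29.6 CPM under vehicle and 61.3 and 52.0 CPM under VitD in WT (log2 1.30, SE 0.308, adjusted p = 0.0245). Sdhaf4, for complex II, had log2 1.205, SE 0.354, adjusted p = 0.0442, and Cox17, the copper chaperone of complex IV, log2 -1.11, SE 0.3003, adjusted p = 0.0346. Atp5sl fell (27.3 and 25.7 CPM under vehicle and 16.2 and 14.6 CPM under VitD in WT; log2 -0.79, SE 0.214, adjusted p = 0.0352), and Atp5s stood at 7.77 and 10.7 CPM under vehicle and 5.89 and 4.36 CPM under VitD in WT (log2 -0.85, SE 0.312, adjusted p = 0.0817). Neither is a subunit of the ATP synthase despite its symbol, and both were lower under VitD than under vehicle in both WT libraries. The 7 pseudogenes had at most 0.614 CPM in any library.

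Other mitochondrial genes were described as lists with the same fit. The calls of this comparison are to be read against its 20.1% of all genes, and rises and falls against 10.6% higher and 9.47% lower. None of 13 genes of the citric acid cycle was called in WT by edgeR (0 at an unadjusted p under 0.05), DESeq2 or limma voom, 12 of 13 lay below 0 and the median was -0.21, with Idh3b at 168 and 236 CPM under vehicle and 155 and 123 CPM under VitD in WT (log2 -0.54, SE 0.287, adjusted p = 0.2). In Tet2KO all 13 lay below 0, with a median of -0.35 and 0 called by each of these tools. None of 17 electron carrier genes was called in WT by edgeR (4 at an unadjusted p under 0.05, 1 called lower by DESeq2 and 2 by limma voom, median -0.04), the smallest p being that of Coq10a (log2 -0.59, SE 0.212, adjusted p = 0.0776). Of 16 genes of mitochondrial biogenesis and transcription 1 fell, Polg, the polymerase of mitochondrial DNA (log2 -0.73, SE 0.204, adjusted p = 0.0386), and the median was -0.45. Of 15 import, channel and carrier genes 4 rose (26.7%, median 0.42), among them the ADP/ATP carrier Slc25a5 (log2 0.81, SE 0.186, adjusted p = 0.0226), the import receptor Tomm20 (log2 0.85, SE 0.252, adjusted p = 0.045) and the channel Vdac3 (log2 0.68, SE 0.181, adjusted p = 0.0326). Of 3 uncoupling proteins Ucp2, which macrophages express, rose (71.8 and 54.9 CPM under vehicle and 216 and 338 CPM under VitD in WT; log2 2.13, SE 0.343, adjusted p = 0.00931).

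The median change of the mitochondrial ribosome in WT was close to that of the subunit genes, and the median of the cytosolic ribosome was higher. Both WT_VitD libraries lay above both WT_vehicle libraries for 65.8% of the mitochondrial ribosomal genes, against 47.5% of the nuclear subunit genes and 33.8% of all genes tested. Of 76 mitochondrial ribosomal genes 13 rose and 1 fell (18.4%), with a median log2 of 0.45 in WT, near that of the nuclear subunits, and among them Mrpl54 (log2 1.30, SE 0.235, adjusted p = 0.0128) and Mrpl20 (log2 1.17, SE 0.202, adjusted p = 0.0111). Of 86 cytosolic ribosomal genes 73 rose (84.9%), with a median of 1.28. In Tet2KO 0 of the 86 were called by edgeR, with 62 at an unadjusted p under 0.05 and a median of 0.78, and DESeq2 called 11 higher. Rps3a2 (log2 2.46 in WT) and Rps3a3 (log2 1.97) headed that list, but they are near-identical copies of Rps3a1 and their values are uncertain, and Rpl22l1 came next (log2 1.77, SE 0.535, adjusted p = 0.0474). Of 12 tested mitochondrial ribosomal and transfer RNAs 1 rose, mt-Tp (log2 0.93, SE 0.157, adjusted p = 0.0106), which a poly-A library measures only in part.

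**Figure D5:**
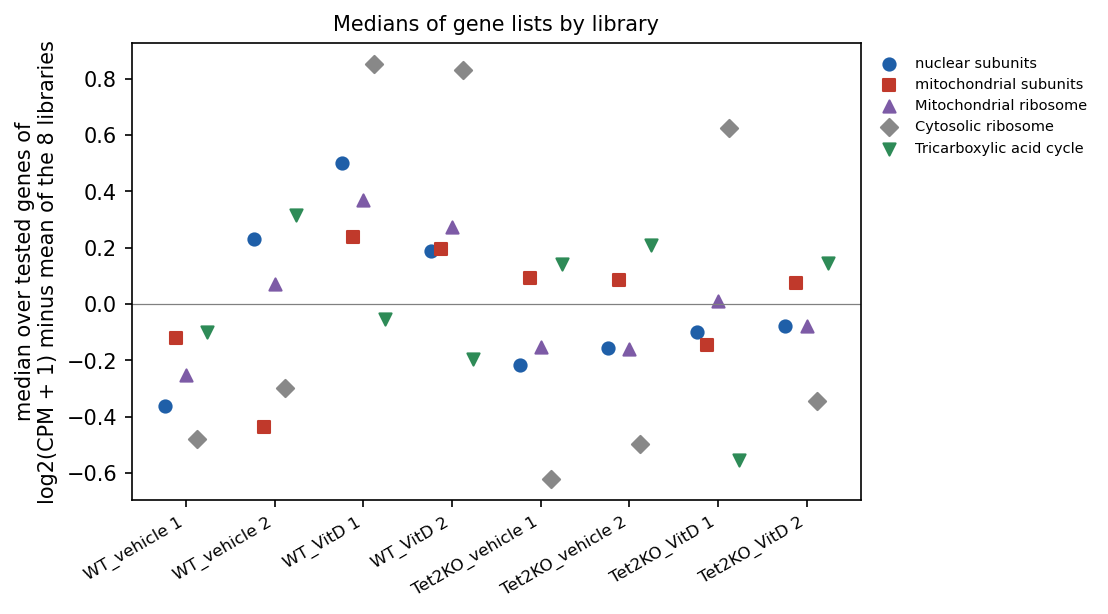
Median over the tested genes of 5 lists of the deviation of log2(CPM + 1) from each gene's mean (vertical axis) in each of the 8 libraries, 1 point per list and library. WT_vehicle 2 lies above WT_VitD 2 for the nuclear subunits (blue, 0.23 and 0.19) and below it for the mitochondrial ribosome (purple, 0.07 and 0.27). The cytosolic ribosome (grey) is high in the 3 libraries of the higher numbering, and the citric acid cycle (green) is highest in WT_vehicle 2 and lowest in Tet2KO_VitD 1.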

How the data were processed

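Counts per gene symbol of 8 libraries were used as deposited, and the table holds no unmapped column. Per the submitters' processing notes, reads were trimmed with Trimmomatic 0.39, aligned to mm10 with STAR 2.7.8a and counted with featureCounts 2.0.2. The sources used here do not give the annotation release, the strand setting or the treatment of reads with several matches. Genes were filtered with filterByExpr, normalised by TMM and tested by edgeR 4.0.16 (R 4.3.3) with quasi-likelihood F-tests, 1 mean per group over all 8 libraries, and Benjamini-Hochberg adjustment over the 16194 genes left, at a threshold of 0.05. The 5 contrasts were VitD against vehicle in each genotype, Tet2KO against WT under each treatment, and the interaction. Total counts of 15679274 to 22332149 per library set the precision, and SE is that of the fitted log2 fold change. Exon lengths and coordinates (mm10) came from GENCODE M21, which matched 46384 of 48587 symbols (95.5%). Promoter sequences came from a RefSeq table of GRCm38.p6. Alternatives were DESeq2 1.42.0 and limma 3.58.1 voom with quality weights, other size factors and filters, the replicate block, library numbering as a covariate, removal of the length trend (of length and GC trends as a later addition), fits of only the groups compared and fits without each library in turn.

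The members and all gene and marker lists were chosen with earlier results of these data known. Named by rule were the mitochondrial genes, the core subunits Ndufs1, Ndufv1, Ndufs7, Sdha, Sdhb, Uqcrfs1, Uqcrc1, Cox4i1, Cox5a, Atp5a1 and Atp5b, and the paired isoforms. For each contrast and complex the rule added up to 3 called genes of each direction, or else the 2 of smallest p, and for other lists up to 3 called genes or the 1 of smallest p. Atp5k and Atp5e in WT, Ndufa2 in WT, Atp5s and the genes of the promoter motifs were named after their values were seen.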

Additional observations from a re-analysis of the deposited data

How the results depend on the processing

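With 2 libraries a group, the calls in WT moved with most settings. The 11 of 102 genes called for VitD against vehicle in WT became 23 of 110 by DESeq2 and 27 of 102 by limma voom with quality weights. They became 29 of 110 with no filter on low counts and 19 of 102 in a fit of the 4 WT libraries alone. All 11 were among those called in each of these 4 settings. Over all genes the main fit called 3251 of 16194. The 4 settings called 3887 of 28001, 4659 of 16194, 4808 of 28001 and 4597 of 15413 in the same order. The 11 calls became 0 with numbering as a covariate, 4 with the length trend removed and 2 with that and the replicate block. With length and GC trends removed, a setting added after seeing the data, they became 5. For these settings 58, 2756, 2040 and 3217 of all 16194 genes were called. Leaving out 1 library gave 0 to 24, with the spread of a group left with 1 library taken from the others. Over all genes, calls fell without a WT or a Tet2KO_vehicle library and rose without a Tet2KO_VitD library. The numbering covariate rests on the 2 Tet2KO_VitD libraries. DESeq2 size factors gave 13, upper quartile factors 14 and a filter at 1 CPM 11, against 3233 of 16194, 3214 of 16194 and 3227 of 15019 over all genes. In Tet2KO, 0 became up to 3 when a library was left out. That highest count came without Tet2KO_VitD 2, with 1 library left in the group, and calls over all genes rose there too. In that fit the share called among the members was below that of all genes. For Tet2KO against WT, no filter gave 2 of 110 under vehicle, against 164 of all 28001 genes, and 8 of 110 under VitD, against 610. The calls under VitD also moved when Tet2KO_VitD 1 was left out. The interaction stayed at 0 in every setting run, and the fit of only the groups compared gives no interaction.

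The equal replicate numbers of the groups gave no pairing: deviations of same-numbered libraries from their group means correlated at -0.11 to 0.14 over genes, in 6 pairs of groups. With the replicate block, 4 genes were called in WT (Cox7b, Atp5l, Atp5g1 and Atp5o) and 0 in the other 4 comparisons. That fit called 2474 of all 16194 genes in WT.

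The nuclear median in WT was 0.0989 with the length trend removed, 0.131 with the block added and 0.139 with length and GC trends removed, and 0.157 to 0.721 when a library was left out. For the mitochondrial genes these values were 0.186, 0.192, 0.0911 and 0.331 to 0.671. In Tet2KO the mitochondrial median was -0.251 with the length trend removed and -0.245 with the block added. In the same order the WT medians were 0.0652, 0.0707, 0.0807 and 0.0816 to 0.702 for complex I, 0.0686, 0.114, 0.159 and 0.195 to 0.871 for complex III and 0.299, 0.299, 0.343 and 0.416 to 0.841 for complex V. Complex IV gave 0.0680, 0.0713 and 0.139. With numbering as a covariate the median was 0.475 for complex II and 0.371 for complex V. On the log2 scale the summed CPM differed in WT by 0.0684 to 0.653 for nuclear and 0.265 to 0.575 for mitochondrial genes when a library was left out.

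Of the single genes, several turned sign, all of them uncalled, and the cause was not tested. With length and GC trends removed the log2 was, for VitD in WT -0.118 in Cox5a, -0.135 in Sdhb and -0.0528 in Uqcrb and for Tet2KO against WT under vehicle 0.113 in Sdhb and 0.0690 in Sdhd. With the length trend removed the log2 was, for VitD in WT -0.134 in Cox5a and -0.179 in Sdhb and for Tet2KO against WT under vehicle 0.0574 in Sdhb and 0.0764 in Sdhd. With the length trend removed and the replicate block the log2 was, for VitD in WT -0.111 in Cox5a and -0.159 in Sdhb and for Tet2KO against WT under vehicle 0.0645 in Sdhb and 0.100 in Sdhd. With limma voom the log2 was, for Tet2KO against WT under vehicle 0.0379 in Sdhd. With numbering as a covariate the log2 was, for VitD in WT 0.464 in Atp5b, 0.258 in Ndufs1, 0.259 in Ndufs7, 0.210 in Ndufv1, 0.372 in Sdha and 0.669 in Uqcrc1 and for VitD in Tet2KO -0.208 in Cox7a2l and 0.00917 in Sdhb. When a library was left out the log2 ran, for VitD in WT, from -0.187 to 0.475 in Atp5a1, from -0.275 to 0.178 in Atp5b, from -0.0181 to 0.662 in Cox5a, from -0.708 to 0.104 in Ndufv1, from -0.783 to 0.0217 in Sdha, from -0.137 to 0.460 in Sdhb and from -0.372 to 0.219 in Uqcrc1. When a library was left out the log2 ran, for VitD in Tet2KO, from -0.199 to 1.01 in Cox7a2l and from -0.315 to 0.0184 in Sdhb. When a library was left out the log2 ran, for Tet2KO against WT under vehicle, from -2.07 to 0.935 in Atp5k, from -0.960 to 0.166 in Cox5b, from -1.22 to 0.0226 in Ndufa2, from -0.320 to 0.279 in Sdhb, from -0.424 to 0.502 in Sdhd and from -1.33 to 0.287 in Uqcr11. Of all single-gene values recomputed, 1134 kept their direction and side of the threshold, 105 no longer passed it, 12 passed it newly and 39 turned sign.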
